A study of Homo sapiens with 4 samples.

Results

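Potassium channel genes were taken as all protein-coding genes whose name begins with KCN, which gave 95 of the 57820 genes in the count tables. They were measured in SY5Y, a human neuroblastoma cell line labelled as wild type for MYCN, so that no amplified MYCN was present in either condition. The cells had been treated for 12 h with SGSS05-NS, taken here to be the inhibitor of the lysine methyltransferase SETD8 that the study calls SGSS05-NS3, or with its solvent DMSO. The labels give a dose of 3 μM, and the study's text gives both that dose and a lower one for RNA-seq of this line, so the dose is given here only as labelled. Each condition had 2 RNA-seq libraries, described in the methods as independent biological replicates of 1 cell line, and the 4 libraries held between 21463105 and 25350204 fragments counted on genes. In bulk RNA, fewer cells that express a gene and less RNA of it per cell cannot be told apart.

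Potassium channels let potassium ions leave or enter the cell and thereby set its resting voltage, its excitability and, in dividing cells, its volume. Voltage-gated channels open when the membrane depolarises, inward rectifiers pass current best near rest, tandem-pore channels leak at all voltages, and a further class opens when calcium or sodium rises inside the cell. Pore subunits form the channel, some pore-like subunits are silent alone and only modify a partner, and auxiliary subunits change its gating or its traffic to the membrane. Neuroblastoma cells are known for the voltage-gated channel encoded by KCNH2 (hERG), which was also the potassium channel gene with the most fragments here.

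The labelled cell type was checked with 8 markers of noradrenergic neuroblastoma. Their summed level was 2186 and 2329 CPM (fragments scaled to one common library size) with DMSO and 1501 and 1278 CPM with SGSS05-NS. TH, the first enzyme of catecholamine synthesis, was nearly absent, with 2 and 2 fragments with DMSO and 1 and 0 with SGSS05-NS, while DBH, the enzyme that makes noradrenaline, had between 11058 and 15472 fragments per library. The 6 mesenchymal markers summed to between 56.9 and 75.5 CPM, most of it FN1, and PRRX1 was at 0. SOX10 (glia), CD3E (blood) and KRT5 (epithelium) were at 0 in the 4 libraries, with list sums of 1.28 to 2.03 CPM for 4 glial, at most 0.0425 CPM for 3 blood and 1.91 to 3.61 CPM for 3 epithelial markers. The noradrenergic sum was thus lower with SGSS05-NS together with the potassium channel genes that fell, and its part in those results was not tested.

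To show the sequence just before the start of genes that changed, the 250 bases upstream of the outermost start site are given for KCNMA1, KCNQ5, KCNH1 and KCNK1, which fell, and for KCNA3 and KCNG3, which rose. KCNS2, which also rose, is not shown. They were taken from RefSeq on GRCh38.p14, each 5′ to 3′ on the strand of its gene, with every CG dinucleotide in capitals.
KCNMA1 (chr10:77637809-77638058, minus strand): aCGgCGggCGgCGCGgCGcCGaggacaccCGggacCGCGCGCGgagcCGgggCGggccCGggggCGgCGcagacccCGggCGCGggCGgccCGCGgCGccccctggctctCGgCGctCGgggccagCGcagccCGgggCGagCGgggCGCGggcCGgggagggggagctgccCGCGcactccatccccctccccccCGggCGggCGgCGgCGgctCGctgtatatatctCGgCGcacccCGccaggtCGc
KCNQ5 (chr6:72621814-72622063, plus strand): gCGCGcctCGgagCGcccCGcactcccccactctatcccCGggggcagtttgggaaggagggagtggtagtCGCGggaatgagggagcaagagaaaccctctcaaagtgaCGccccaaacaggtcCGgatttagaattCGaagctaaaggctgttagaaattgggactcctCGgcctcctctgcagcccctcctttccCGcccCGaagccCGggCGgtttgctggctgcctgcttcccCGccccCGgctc
KCNH1 (chr1:211134149-211134398, minus strand): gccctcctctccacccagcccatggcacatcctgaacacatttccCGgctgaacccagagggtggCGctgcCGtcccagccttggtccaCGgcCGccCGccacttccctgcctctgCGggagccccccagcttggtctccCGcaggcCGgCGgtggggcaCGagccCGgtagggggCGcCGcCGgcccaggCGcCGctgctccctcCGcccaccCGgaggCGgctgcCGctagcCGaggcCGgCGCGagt
KCNK1 (chr1:233613856-233614105, plus strand): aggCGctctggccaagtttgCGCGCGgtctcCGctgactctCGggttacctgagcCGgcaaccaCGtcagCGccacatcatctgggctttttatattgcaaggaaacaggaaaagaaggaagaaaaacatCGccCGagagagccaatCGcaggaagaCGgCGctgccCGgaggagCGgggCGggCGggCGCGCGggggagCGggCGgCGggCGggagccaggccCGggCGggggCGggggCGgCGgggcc
KCNA3 (chr1:110674941-110675190, minus strand): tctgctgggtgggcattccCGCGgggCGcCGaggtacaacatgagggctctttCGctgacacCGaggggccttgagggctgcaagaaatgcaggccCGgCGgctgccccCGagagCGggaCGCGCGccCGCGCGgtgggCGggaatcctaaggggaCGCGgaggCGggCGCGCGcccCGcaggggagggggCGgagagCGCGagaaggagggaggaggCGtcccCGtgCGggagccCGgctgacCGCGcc
KCNG3 (chr2:42493983-42494232, minus strand): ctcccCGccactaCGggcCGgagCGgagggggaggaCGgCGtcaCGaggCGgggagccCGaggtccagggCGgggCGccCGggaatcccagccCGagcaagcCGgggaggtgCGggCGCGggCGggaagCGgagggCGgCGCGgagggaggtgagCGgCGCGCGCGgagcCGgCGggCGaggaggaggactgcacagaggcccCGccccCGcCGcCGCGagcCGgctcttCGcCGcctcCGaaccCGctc

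The 6 sequences held 46 (KCNMA1), 18 (KCNQ5), 25 (KCNH1), 30 (KCNK1), 33 (KCNA3) and 40 (KCNG3) CG dinucleotides, beside a median of 11 over the 35116 promoters of the RefSeq table and of 25 over the 29 tested potassium channel genes with a promoter there. At least as many were held by 0.413% of all promoters for KCNMA1 and 2.16% for KCNG3, but by 12.4% for KCNK1 and 36.8% for KCNQ5. TATAAA, searched on both strands as were the other motifs, was in the window of KCNK1 and in none of the other 5, against 10.7% of all promoters. None of the 6 windows held TGACGTCA, the cAMP response element (1.65%), TGAGTCA, the AP-1 element (4.20%), or GAANNTTC, a core of the heat shock element (5.78%). A promoter was found for only 29 of the 45 genes tested (64.4%), so no comparison over the whole set was made.

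The first question was which potassium channel genes the cells expressed. Of the 95 genes, 33 reached 1 CPM with DMSO and 36 with SGSS05-NS, and 13 reached 10 CPM with DMSO. KCNH2 alone gave 29.0% of the fragments on potassium channel genes with DMSO, and the first 5 genes gave 60.9%. Per kilobase of the canonical transcript, with DMSO, KCNH2 had the highest level, 38.2 CPM per kb, and KCNK1 (9.50), KCNJ8 (5.88), KCNT2 (5.78), KCNH1 (5.71) and KCNK3 (4.55) were among the next. These genes cover the voltage-gated, inward rectifier, tandem-pore and sodium-activated classes. The summed level over all 95 genes was 556.7 and 573.4 CPM with DMSO and 483.2 and 475.0 CPM with SGSS05-NS, so the libraries of the conditions did not overlap.

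After the filter on low counts 45 of the 95 genes could be tested among 16468 genes in all, and 50 could not, of which 16 had no fragment in any library. With edgeR's quasi-likelihood test and an adjusted p-value under 0.001, 7 of the 45 changed (15.6%), against 14.5% of all genes tested. KCNA3, KCNG3 and KCNS2 rose (6.67%, against 6.37% of all genes), and KCNMA1, KCNQ5, KCNH1 and KCNK1 fell (8.89%, against 8.14%). KCNS2 passed the filter only through its level with SGSS05-NS, and with at least 10 counts asked in every library it was not tested, 2 genes rose and 3 fell. Both shares were close to those of all genes. With a looser threshold of 0.05, 17 of 45 passed (37.8%, against 46.3%), 6 of them higher (13.3%, against 22.6%) and 11 lower (24.4%, against 23.7%). The libraries of the conditions did not overlap for 31 of the 45 genes (68.9%), against 74.7% of all genes.

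**Figure D1:**
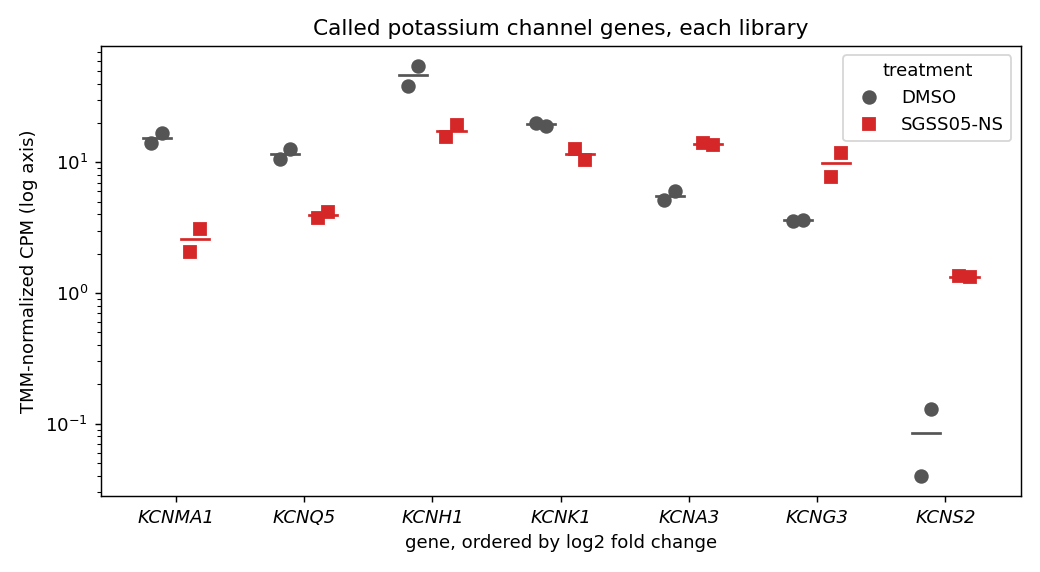
Level of the 7 potassium channel genes that changed, in CPM on a log axis, in each of the 2 DMSO and 2 SGSS05-NS libraries; each point is 1 library and each bar the mean of 2. KCNMA1, KCNQ5, KCNH1 and KCNK1 lie lower and KCNA3, KCNG3 and KCNS2 higher in both SGSS05-NS libraries, and for none of the 7 do the conditions overlap.

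Among the calcium- or sodium-activated channels the change was in KCNMA1, the pore of the large-conductance BK channel, which opens on calcium and voltage together. KCNMA1 spans 769 kb on the minus strand of chromosome 10 (78629359 to 79398127, GRCh37). It had 352 and 391 fragments (14.0 and 16.7 CPM) with DMSO and 46 and 73 fragments (2.07 and 3.10 CPM) with SGSS05-NS. Both treated libraries lay far under both controls, and the log2 fold change was -2.56 ± 0.20 (SE), the lowest of the 45 genes (adjusted p = 2.0e-06). Leaving out each library in turn moved it between -2.89 and -2.31.

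KCNMB4, the neuronal BK auxiliary subunit, had 11.3 and 11.3 CPM with DMSO and 7.62 and 7.78 CPM with SGSS05-NS. The conditions did not overlap, but the log2 fold change of -0.56 ± 0.14 did not pass (adjusted p = 0.0079). KCNT2, a sodium-activated pore, was higher per kilobase than KCNMA1 and stood at 33.5 and 35.6 against 21.8 and 30.1 CPM (log2 fold change -0.41 ± 0.14, adjusted p = 0.031), and passed only without SGSS05-NS replicate 2 (-0.66) among the alternatives run. Its relative KCNT1 and the small-conductance calcium-activated channel KCNN1 had overlapping libraries, with log2 fold changes of -0.04 and -0.12. All 4 tested pore genes of this class were below 0, with a median of -0.26 against 0.01 for all genes tested, and 1 of the 4 passed.

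The voltage-gated pore genes were the largest class, with 40 genes of which 22 were tested, 3 rose and 2 fell. Their median log2 fold change was 0.33, with 14 genes above and 8 below 0. The 14 include KCNS2 and KCNA2, which passed the filter only through their level with SGSS05-NS. With at least 10 counts asked in every library the median was 0.15. The median was 0.03 without SGSS05-NS replicate 1, 0.13 without DMSO replicate 1 and 0.14 over genes of at least 1 CPM. KCNQ5, a subunit of the M-current that damps repeated firing, had 10.7 and 12.6 CPM with DMSO and 3.79 and 4.17 CPM with SGSS05-NS. The treated libraries were close together and below both controls (log2 fold change -1.55 ± 0.17, adjusted p = 2.7e-05). KCNQ5 lies on the plus strand of chromosome 6 (73331520 to 73908576, GRCh37).

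KCNH1, the ether-à-go-go channel that is often raised in tumours, had 38.7 and 54.4 CPM with DMSO and 15.6 and 19.3 CPM with SGSS05-NS. The controls differed from each other more than for KCNQ5, yet the lower control was still above both treated libraries (log2 fold change -1.41 ± 0.16, adjusted p = 3.2e-05). KCNH1 lies on the minus strand of chromosome 1 (210850165 to 211307507, GRCh37). KCNH2, its better known relative, had 171 and 157 CPM against 149 and 141 CPM and did not pass (log2 fold change -0.18 ± 0.09, adjusted p = 0.13).

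The genes that rose were a delayed rectifier and a pair of silent subunits. KCNA3, a delayed rectifier best known from T cells, had 5.14 and 5.99 CPM with DMSO and 14.2 and 13.6 CPM with SGSS05-NS (chromosome 1, minus strand, 111196182 to 111217562, GRCh37). Its libraries agreed closely within each condition and did not overlap between them (log2 fold change 1.32 ± 0.15, adjusted p = 3.8e-05). KCNA2, a related pore gene, had 4 and 2 fragments with DMSO and 11 and 11 with SGSS05-NS, a ratio of 3.89 with an exact 95% interval of 1.53 to 11.7 that covers counting error only. KCNA2 passed the filter only through its level with SGSS05-NS, so its values are given as a description. The other 6 KCNA genes could not be tested.

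KCNG3 encodes a silent subunit that makes no channel by itself and modifies a partner pore. It had 3.59 and 3.64 CPM with DMSO and 7.80 and 11.9 CPM with SGSS05-NS (chromosome 2, minus strand, 42669157 to 42721122, GRCh37). The treated libraries differed from each other, and both lay above the controls (log2 fold change 1.45 ± 0.22, adjusted p = 0.00023). KCNS2, another silent subunit of the same kind, had 1 and 3 fragments with DMSO and 30 and 31 with SGSS05-NS, a ratio of 16.2 with an exact 95% interval of 6.0 to 61.2 for counting error (chromosome 8, plus strand, 99439186 to 99445081, GRCh37). The fitted log2 fold change was 3.93 ± 0.50 (adjusted p = 7.3e-05) and was 2.33 when fragments of either strand were counted, and it was 3.32 without DMSO replicate 1 and 4.87 without DMSO replicate 2. Its size thus rests on the few control fragments and on the strand counted. KCNS2 passed the filter only through its level with SGSS05-NS, so its call and values are given as a description.

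Of the silent subunits KCNG1 and KCNF1, the first had 6.62 and 6.85 against 8.29 and 6.89 CPM. KCNF1 had overlapping libraries (0.159 and 0.471 against 0.270 and 0.638 CPM). Neither passed, and KCNG1 had a log2 fold change of 0.17 and KCNF1 of 0.56. The sign for KCNF1 turned without DMSO replicate 1 (-0.05) and without SGSS05-NS replicate 2 (-0.19).

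The KCNH genes were set out in full and KCNQ genes beside them, a choice made after their values were seen, because their members differ widely in gene span, the distance from the first to the last annotated base. In the KCNH family, KCNH3 (19.3 kb), KCNH4 (24.3 kb) and KCNH6 (25.6 kb) had log2 fold changes of 0.86, 0.44 and 0.62. KCNH3 had 13 and 8 fragments with DMSO and 17 and 19 with SGSS05-NS. It met the filter on low counts in both libraries only with SGSS05-NS, so its value is given as a description. KCNH2 (33.4 kb) was at -0.18, and the long genes KCNH8 (387 kb), KCNH1 (457 kb) and KCNH7 (467 kb) were at -0.63, -1.41 and -0.83. Only KCNH1 of these 7 passed, and KCNH5 could not be tested.

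In the KCNQ family, KCNQ3 (360 kb), a subunit of the M-current, was at -0.79 (adjusted p = 0.0025). KCNQ1 (404 kb), which carries a slow current in heart muscle, was at -0.48 (adjusted p = 0.033), and KCNQ5 (577 kb) was at -1.55. KCNQ5 was the one of these that passed.

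**Figure D2:**
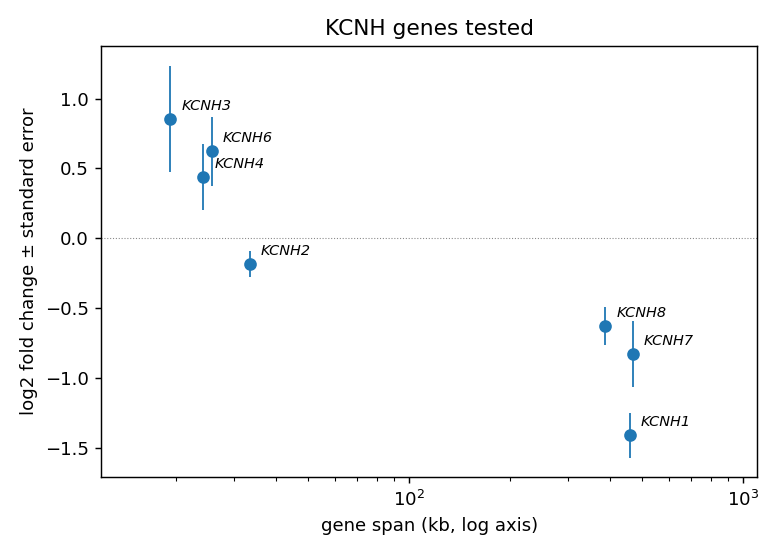
Log2 fold change (SGSS05-NS against DMSO, with its standard error) of the 7 tested KCNH genes against gene span in kb on a log axis; each point is 1 gene, and only KCNH1 passed the test. The genes of 300 kb and more, KCNH8, KCNH1 and KCNH7, lie below 0, and the 3 genes above 0 span 19.3 to 25.6 kb. KCNH3, the shortest, met the filter on low counts in both libraries only with SGSS05-NS.

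Inward rectifiers had no gene that changed. None of the 6 tested inward rectifiers passed, and their median log2 fold change was 0.04. KCNJ8, a pore of the ATP-sensitive channel, had 14.2 and 12.6 CPM with DMSO and 13.3 and 10.6 CPM with SGSS05-NS, and KCNJ9, a G protein-gated channel subunit, had 9.80 and 9.63 against 12.2 and 10.5 CPM. Their log2 fold changes were -0.16 ± 0.15 (adjusted p = 0.40) and 0.22 ± 0.15 (adjusted p = 0.24). KCNJ14 had 1.24 and 2.57 against 4.19 and 3.02 CPM, which did not overlap and did not pass (log2 fold change 0.93 ± 0.31, adjusted p = 0.028). For KCNJ14 the value was 1.52 without DMSO replicate 2 and 0.48 without DMSO replicate 1. With no filter on low counts it was 0.90 and passed.

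Of the 7 tested tandem-pore genes, KCNK1 fell. KCNK1, a weakly conducting leak channel, had 20.1 and 19.1 CPM with DMSO and 12.6 and 10.5 CPM with SGSS05-NS (chromosome 1, plus strand, 233749852 to 233808260, GRCh37). The conditions did not overlap (log2 fold change -0.76 ± 0.13, adjusted p = 0.00077), but the call was lost with scaling by library size alone (adjusted p = 0.0024), with at least 10 counts asked in every library (0.0010) and without SGSS05-NS replicate 2 (0.0030). KCNK3, an acid-sensitive leak channel, had 27.7 and 28.7 CPM with DMSO and 29.1 and 27.3 CPM with SGSS05-NS, the closest to no difference of all 45 genes (log2 fold change -0.002 ± 0.107).

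Auxiliary subunits of voltage-gated channels had no gene that passed among the 4 tested of 13, and their median log2 fold change was -0.03. KCNAB2, a beta subunit that binds the inner face of the channel, had 6.74 and 7.53 CPM with DMSO and 5.05 and 5.66 CPM with SGSS05-NS (log2 fold change -0.41 ± 0.17, adjusted p = 0.068). KCNAB3, of the same beta family, had 3.07 and 3.60 against 4.01 and 4.51 CPM (log2 fold change 0.36 ± 0.20). KCNRG, which hinders the assembly of voltage-gated channels, had 0.797 and 0.556 against 0.361 and 0.553 CPM, with an SE of 0.40 about a log2 fold change of -0.56.

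Across the 45 genes the log2 fold change was set against gene span. Spearman's rho was -0.57 (n = 45 genes, which share 4 libraries and are not replicates), beside -0.42 over 12567 protein-coding genes and -0.22 over 16042 genes with a span. With summed exon length in place of span it was -0.11 for the potassium channel genes. Without KCNMA1 it was -0.54, and over the 38 genes that were not called -0.46.

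By span, the 11 potassium channel genes under 20 kb had a median log2 fold change of 0.56 and the 19 genes of 20 to 100 kb a median of 0.44. The 7 genes of 100 to 300 kb had -0.10, and the 8 genes of 300 kb or more, KCNMA1, KCNQ5, KCNH7, KCNH1, KCNQ1, KCNH8, KCNT2 and KCNQ3, had -0.81. The last 8 were all below 0, and 3 of them (37.5%) passed. Protein-coding genes in the same bins had medians of 0.17, 0.04, -0.34 and -1.10, and of the 571 that span 300 kb or more 94.6% were below 0 and 58.5% fell. Values below 0 at long span were thus shared with most long protein-coding genes in these libraries.

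Level also moved with both measures across these genes. The rank correlation between span and mean CPM was 0.33 and between log2 fold change and mean CPM -0.46 (-0.15 over all genes). Among potassium channel genes of at least 1 CPM, the medians in the same 4 bins were 0.36, 0.20, -0.10 and -0.81. The share of fragments assigned outside exons was 12.4% and 12.3% with DMSO and 16.1% and 15.3% with SGSS05-NS, and its part in the relation to span was not tested.

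The 50 genes below the filter held at most 16 fragments in any library. The 10 of them that span 300 kb or more summed to 20 and 15 fragments with DMSO and 8 and 10 with SGSS05-NS. The 31 under 100 kb summed to 26 and 35 with DMSO and 59 and 81 with SGSS05-NS, and the 9 in between to 23 and 12 against 17 and 17. These sums did not overlap between conditions for the longest and the shortest class and overlapped for the class in between. No such sums were made for other genes below the filter, and these were not tested. A count of 0 in a library allows up to 3 fragments, which is 0.120 to 0.135 CPM here, so that the 16 genes without a fragment were not detectable at this depth.

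The other genes of the pathway were read from a list of 21 partner subunits, pacemaker channels and sodium-potassium pump genes. Of these 12 were tested, none rose (6.37% of all genes did) and 1 fell (8.14% of all genes). The median log2 fold change was 0.39, with 10 of 12 above 0, as were 8404 of all 16468 genes. With the looser threshold of 0.05, 5 of the 12 passed in the higher direction (22.6% of all genes) and 1 in the lower (23.7%). The one that fell was DPP6, an auxiliary subunit of the fast-inactivating KCND channels, with 22.8 ± 1.01 CPM with DMSO and 7.60 ± 1.89 CPM with SGSS05-NS (SD, n = 2; log2 fold change -1.58 ± 0.16, adjusted p = 1.5e-05). DPP6 spans 1241 kb, and none of the 3 KCND pore genes could be tested.

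The tested pacemaker channels, which carry sodium and potassium and open on hyperpolarisation, had values above 0 without passing. HCN2 had 4.89 ± 0.25 CPM with DMSO and 8.93 ± 1.14 CPM with SGSS05-NS (log2 fold change 0.87, adjusted p = 0.0017), HCN3 had a log2 fold change of 0.65 and HCN4 of 1.34. ABCC9, the usual partner of KCNJ8 in the ATP-sensitive channel, had 2 and 1 fragments with DMSO and 1 and 1 with SGSS05-NS, whereas ABCC8, the other such partner, had 1.38 ± 0.13 and 2.24 ± 0.56 CPM (log2 fold change 0.70, adjusted p = 0.056).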

How the data were processed

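RNA-seq counts per gene were deposited for each of the 4 libraries. Per the labels and the study's methods, the authors trimmed reads with Trimmomatic 0.30, aligned them with STAR 2.4.2a to hg19 and counted fragments on GENCODE 19 genes. Of the 3 count columns, the strand-specific one (the last) was used, and the 4 summary lines were left out of all totals. Multi-mapping fragments do not enter these counts, so genes with near-identical copies, such as KCNJ12, are uncertain. Names, types and positions were joined by identifier from GENCODE 44 on GRCh37, the same build, and 55538 of 57820 identifiers matched.

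The counts were filtered with filterByExpr, scaled by TMM and fitted with the quasi-likelihood test of edgeR 4.0.16 under R 4.3.3 (Benjamini-Hochberg adjustment over all genes tested, threshold 0.001), with group as the only term. CPM used TMM-scaled library sizes. SE is the size of the log2 fold change over the square root of F. Intervals are exact (scipy 1.17.1) and cover counting error only. The fit was tested on simulated data with 200 planted changes. At the threshold it recovered 77% of them and 66% of those of 2-fold, with 2 false calls. A gene that did not pass may thus still have changed. Named genes were KCNMA1, all that passed, in each subfamily the one with the highest CPM and the one with the smallest p, the 5 longest and the 5 shortest, and related genes that passed; other members were named with their values in view. The potassium channel genes, lists and tests were chosen with earlier results of these data known. Alternatives were other scalings, filters, tests (DESeq2 1.42.0, limma 3.58.1), strand columns, thresholds and libraries left out. Some genes are not reported by name here.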

Additional observations from a re-analysis of the deposited data

Results flagged for a closer look

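Fragments on the strand opposite to a potassium channel gene were not used in any comparison. Summed over the 95 genes they were 2.75% and 2.96% of the fragments on both strands with DMSO and 5.23% and 5.02% with SGSS05-NS. Of the genes with at least 20 such fragments over the 4 libraries, 8 had both SGSS05-NS libraries above both DMSO libraries and a level at least doubled, and the others did not. Neither these shares nor this count was set beside those over all genes, so whether they are particular to potassium channel genes was not tested. Intervals are exact, at 95%, for counting error.

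Where exons of another gene are annotated on that strand, the ratios of the SGSS05-NS to the DMSO level were 4.31 for KCND3 (14 and 6 against 42 and 38 fragments, interval 2.57 to 7.31), opposite DDX20, 2.39 for KCNK12, 2.19 for KCNJ13, opposite GIGYF2, 2.12 for KCNIP2, opposite KCNIP2-AS1, and 2.05 for KCNQ1, opposite KCNQ1-AS1 and KCNQ1OT1. No exon is annotated there for the other genes. KCNT1 had 2 and 0 fragments with DMSO and 8 and 16 with SGSS05-NS (ratio 13.1, interval 3.16 to 111). KCNH6 had 0 and 2 against 10 and 13 (ratio 11.7, interval 3.01 to 106.7), and KCNV2 had 8 and 3 against 21 and 11 (ratio 3.16, interval 1.52 to 6.78). These ratios were not tested across replicates.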

How the results depend on the processing

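Named genes gave 270 values under alternatives, of which 257 kept their direction and their side of the threshold. KCNK1 lost its call under 3 alternatives (given with its values), and KCNH7, KCNJ14 and KCNT2 gained one under 4. The sign changed for KCNK3, which was 0.031 with library size only, 0.01 with at least 10 counts in every library and between -0.056 and 0.045 (0.004 without DMSO replicate 2) with a library left out, and for KCNF1 (0.56), which was between -0.19 (without SGSS05-NS replicate 2) and 1.47 (-0.05 without DMSO replicate 1). The count of genes that rose was 5 with no filter, 6 at an adjusted p-value under 0.05 and 3 to 5 with a library left out (5 without DMSO replicate 2); that of genes that fell was 7 with no filter, 11 at 0.05, 8 at 0.01 and 4 to 5. With at least 10 counts in every library 2 rose and 3 fell, and with library size only 3 fell.

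Subfamily medians also moved. With no filter they were 0.43 (voltage-gated auxiliary), 0.17 (inward rectifier), 0.55 (tandem pore) and -0.59 (calcium-activated auxiliary). With at least 10 counts in every library they were 0.37, 0.21, 0.24 and -0.55 in that order, and 0.15 for voltage-gated pores. With fragments of either strand they were 0.48 (voltage-gated pore), 0.11 (its auxiliaries), 0.16 (inward rectifier) and 0.18 (tandem pore). With DESeq2, over all genes it fitted, they were 0.45, 0.17, 0.55 and -0.59 for the classes in the first order. At 1 CPM or more they were 0.14 (voltage-gated pore), 0.36, 0.20 (inward rectifier) and -0.56 (calcium-activated auxiliary). With a library left out the ranges were 0.031 to 0.47 (voltage-gated pore), 0.063 to 0.42 (its auxiliaries), 0.025 to 0.22 (inward rectifier), -0.007 to 0.36 (tandem pore), -0.50 to -0.07 (calcium- or sodium-activated pore) and 0.017 to 0.37 (calcium-activated auxiliary). The causes were not tested.

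The rank correlation with span stayed below 0 under every alternative that kept span. It was -0.44 with no filter, -0.70 with at least 10 counts, -0.43 with DESeq2 and -0.64 for pore genes. At 1 CPM or more it was -0.73, and with a library left out -0.66 to -0.53. With summed exon length in place of span the correlation was -0.11. The span correlation over genes that were not called, -0.46, and that without KCNMA1 were chosen after seeing the data. The replicate differences of the conditions were nearly uncorrelated (0.0526 over genes), and whether same-numbered libraries are paired was not tested. With the replicate block 4 genes rose and 6 fell. With 2 libraries per condition and few fragments on most of these genes, no difference could be tested in any single gene of the 50 below the filter.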

Other observations

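Among the non-coding genes named after potassium channels, KCNQ1OT1, the long RNA that lies antisense within KCNQ1 and is known for silencing neighbouring imprinted genes, had 1195 and 896 fragments with DMSO and 2072 and 2816 with SGSS05-NS. Its level was 43.0 ± 6.56 CPM with DMSO and 106.5 ± 18.7 CPM with SGSS05-NS (SD, n = 2), and it rose by edgeR's quasi-likelihood test (log2 fold change 1.31 ± 0.13, adjusted p = 1.5e-05). KCNQ1, read from the other strand, had a log2 fold change of -0.48 and did not pass.

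KCNK15-AS1 had 14 and 13 fragments with DMSO and 3 and 5 with SGSS05-NS and did not pass (log2 fold change -1.64 ± 0.48, adjusted p = 0.015). KCNK15-AS1 met the filter on low counts only through its level with DMSO, so its values are given as a description. KCNH1-IT1, an RNA inside KCNH1, had 70 and 62 against 49 and 42 fragments (log2 fold change -0.45, adjusted p = 0.14). The antisense genes KCNMA1-AS1, KCNMA1-AS2 and KCNMA1-AS3 had no fragment in any library.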
